A study of Mus musculus with 6 samples.

Results

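Capillary endothelial cells line the smallest blood vessels, and here they are those found in dissociated mouse sciatic nerve at postnatal days 0, 7, 14, 28 and 60 (P0, P7, P14, P28 and P60). Among 50754 kept barcodes of the 5 nerve libraries, 2244 met the rule for these cells. The rule asked for a unique molecular identifier (UMI, 1 count per captured RNA molecule) of at least 3 of 5 pan-endothelial genes, Pecam1, Cdh5, Cldn5, Flt1 and Egfl7. It allowed at most 1 of the 5 arterial genes Gja5, Gja4, Bmx, Sema3g and Efnb2, at most 1 of the 4 venous genes Ackr1, Selp, Vwf and Sele, and none of Prox1, Mmrn1, Sox10, Pdgfra and Csf1r. These last 5 genes mark lymphatic endothelium, Schwann cells, fibroblasts and macrophages. The cells were chosen by detected UMIs of these 19 genes, so the levels of those genes are given only as a description, with no test. Arterial cells (1166) and venous cells (478) were chosen in the same way, with 3 pan-endothelial genes and at least 2 of the arterial or of the venous genes.

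The animals were untreated C57BL/6 mice of both sexes, and the nerves of 22, 21, 18, 15 and 13 animals were pooled at P0, P7, P14, P28 and P60. The study followed the cells of the developing nerve, and there was 1 library per age. A difference between ages therefore had no replicate check, and no p-value is given for it. Intervals beside levels, shares and ratios are exact, at 95%, and cover counting error only.

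Endothelial cells of peripheral nerve differ by layer. Vessels inside the fascicles form the blood-nerve barrier, with tight junctions and the glucose transporter Slc2a1, whereas vessels of the outer sheath are more permeable. In the brain, canonical Wnt signalling maintains the barrier state of capillaries and represses Plvap, the protein of the diaphragms that span fenestrae and caveolae. Capillaries of muscle and fat instead take up fatty acids through Cd36, Fabp4 and Gpihbp1.

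The kept barcodes numbered 9924, 11206, 8962, 13495 and 7167 from P0 to P60, with median depths of 5783, 7889, 5560, 3420 and 6941 UMIs. The P28 and P60 libraries went against their labels in 1 respect. The labels give 6 females at P28 and 8 at P60, yet Xist, the RNA of the silenced X chromosome, stood at 0.516 and 0.276 CPM (UMIs of a gene scaled to a total of 1000000 UMIs) over all their kept cells, against 452, 893 and 479 CPM in the 3 younger libraries. The 4 Y-linked genes Ddx3y, Eif2s3y, Uty and Kdm5d summed to 109, 55.4, 108, 212 and 183 CPM from P0 to P60. Age and the sex mix of the pools cannot be told apart, so counts between ages are also given for cells with a Y-linked UMI and no Xist. Between 0 and 13 capillary cells per library carried a barcode that another library also held.

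Capillary cells numbered 127, 21, 1630, 283 and 183 from P0 to P60. Their share of kept cells was in the same order 1.28% (interval 1.07 to 1.52), 0.187% (0.116 to 0.286), 18.2% (17.4 to 19.0), 2.10% (1.86 to 2.35) and 2.55% (2.20 to 2.95). The P14 library stood far above the other 4, and most capillary cells of the series came from it. Among capillary, arterial and venous cells together, capillary cells made up 76.5% (69.3 to 82.7), 48.8% (33.3 to 64.5), 58.2% (56.3 to 60), 60.5% (55.9 to 64.9) and 44.7% from P0 to P60. Capillary cells were shallower than the other classes, with a median of 5068 UMIs at P14 against 9315 in arterial and 7678 in venous cells. A deeper cell has more chances to show arterial or venous genes, and when cells were thinned to 2000 UMIs before the rule was applied the capillary share of these classes became 93.2%, 81.5%, 75.2% and 66.2% at P0, P14, P28 and P60. The P7 library gave too few cells for any comparison. Its Schwann cell list summed to 11270 CPM in capillary cells, against 1376, 454, 555 and 166 CPM at P0, P14, P28 and P60.

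The label was checked on endothelial genes outside the rule. From P0 to P60, Kdr, the main receptor for VEGF, stood at 576, 815, 954, 1109 and 924 CPM, and Emcn, a sialomucin of capillary and venous endothelium, at 605, 828, 724, 637 and 790 CPM. Tie1, an endothelial receptor kinase, stood at 289, 246, 387, 355 and 347 CPM. Gpihbp1, which holds lipoprotein lipase on the capillary wall, stood at 1648, 563, 888, 578 and 1009 CPM, and Rgcc at 478, 356, 627, 740 and 681 CPM. All 5 genes were present at every age, and Lyve1 of lymphatic endothelium was at most 1.52 CPM. Their presence alone does not set capillary cells apart from other endothelium. In the comparisons below, Kdr and Rgcc passed against venous but not against arterial cells. Gpihbp1 did not pass against venous cells (1.30, edgeR adjusted p = 0.162). At P14, 458 of the 1630 capillary cells had no UMI of the arterial or venous genes of the rule. At the lower edge of the rule, P14 cells with 3 pan-endothelial genes had 405 CPM of Kdr and cells with 2, just outside, had 43.7. At the arterial edge, Kdr stood at 985 CPM with 1 arterial gene and at 1043 with 2. At the venous edge it stood at 1196 CPM with 0 venous genes, 753 with 1 and 481 just outside with 2. At P14, Kdr thus dropped sharply at the lower edge, fell by degrees at the venous edge and did not fall at the arterial edge. At P0 the 25 cells with 3 pan-endothelial genes had 120 CPM of Kdr, against 561 with 4 and 603 with 5.

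A pair of genes that return in each comparison below are shown with the 250 bases before their start, since their levels lay at opposite ends of the capillary cells. Spock2 encodes a secreted proteoglycan, and Lrg1 a secreted glycoprotein that modulates TGF-beta signalling in vessels. The sequences are those of RefSeq on GRCm38.p6, at chr10:60106007-60106256 on the plus strand for Spock2 and chr17:56121947-56122196 on the minus strand for Lrg1. Capitals mark AGGAAG or its reverse complement CTTCCT, letters of an ETS-type motif, the family of Erg, searched on both strands.
Spock2: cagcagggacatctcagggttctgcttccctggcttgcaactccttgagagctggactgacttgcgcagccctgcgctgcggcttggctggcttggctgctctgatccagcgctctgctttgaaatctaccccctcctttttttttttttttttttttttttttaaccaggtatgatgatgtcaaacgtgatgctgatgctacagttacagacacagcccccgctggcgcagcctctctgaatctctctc
Lrg1: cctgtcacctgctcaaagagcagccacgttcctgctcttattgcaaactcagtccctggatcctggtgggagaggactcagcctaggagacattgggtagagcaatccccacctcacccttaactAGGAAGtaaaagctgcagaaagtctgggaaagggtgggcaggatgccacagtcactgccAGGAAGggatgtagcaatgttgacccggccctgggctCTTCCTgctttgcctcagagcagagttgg
The Lrg1 window held 3 matches, starting 125, 66 and 29 bases before the gene, and the Spock2 window held 0. The windows of Car4 and Kdr, which lay on the Slc2a1 and the Plvap side in the division described further on, also held 0. Of all 32807 RefSeq windows of this length, 9674 (29.5%) held a match, so a match is common and is given as a description only.

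The first comparison was with arterial cells, at P0, P14, P28 and P60. Capillary cells had lower levels of arterial genes outside the rule, while several genes of venous endothelium were higher in them than in arterial cells. Of 10486 genes tested, 158 were higher (1.51%) and 288 lower (2.75%) in capillary cells, 4.25% in all, in edgeR's quasi-likelihood test, Benjamini-Hochberg adjusted at 0.05, on UMIs summed per library and class with the library as block. The median log2 fold change over all tested genes was 0.01. Arterial and venous contrasts share the capillary sums.

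RNA of other cell types also differed between these classes. At P0, P14, P28 and P60 the mural list summed to 204, 748, 967 and 609 CPM in capillary and 21.8, 586, 1709 and 2138 CPM in arterial cells, where 0 of 11 tested genes passed (median -0.67). The mesenchymal list summed to 1175, 1419, 3526 and 425 CPM against 676, 729, 4158 and 743 CPM, with 1 of 8 called higher, Smoc2 (0.82). Of 6 tested perineurial genes 1 was higher, Lypd2 (1.11), and 2 lower, Moxd1 (-1.42) and Ntn4 (-1.34), and of 4 erythroid genes 1 was higher, Hba-a2 (1.08), which shares near-identical sequence with Hba-a1. Their part in the results was not tested.

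Of 21 tested arterial genes outside the rule, 14 were lower in capillary cells and 0 higher, with a median log2 fold change of -1.59. Fbln5, an elastic fibre protein, stood at 48.2, 20.6, 39.6 and 29.9 CPM in capillary cells at P0, P14, P28 and P60, and at 212, 171, 479 and 246 CPM in arterial cells. Every arterial value lay above every capillary value, and the log2 fold change was -3.06 ± 0.237 (SE derived from the test's F statistic, n = 4 libraries, edgeR quasi-likelihood adjusted p = 2.20e-04). Alpl, tissue-nonspecific alkaline phosphatase, stood at 1.15, 0.467, 20.5 and 12.4 CPM in capillary and at 14.5, 26.0, 204 and 162 CPM in arterial cells. It was lower in capillary cells in each library, by a log2 fold change of -3.99 ± 0.294 (edgeR adjusted p = 8.39e-05), and both classes had more of it at P28 and P60. Hey1, a Notch target that specifies arteries, stood at 48.2, 58.5, 33.5 and 21.1 CPM in capillary and at 122, 141, 123 and 80.0 CPM in arterial cells. The classes did not overlap, at a log2 fold change of -1.53 ± 0.145 (edgeR adjusted p = 8.42e-07). Stmn2, a microtubule regulator best known from neurons, stood at 42.5, 39.7, 86.0 and 59.0 CPM against 276, 220, 407 and 301 CPM, a log2 fold change of -2.45. The Notch ligands Jag1 (-1.79), Jag2 (-1.08) and Dll4 (-0.67), the vasoconstrictor precursor Edn1 (-1.74), the growth factor Vegfc (-2.05), the netrin receptor Unc5b (-1.59) and the transcription factor Sox17 (-0.93) were lower as well.

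Of 17 tested venous genes outside the rule, 6 were higher in capillary than in arterial cells and 0 lower, with a median of 0.65. Aplnr, the apelin receptor, stood at 399, 641, 263 and 336 CPM in capillary and at 200, 272, 59.7 and 100 CPM in arterial cells. It was higher in capillary cells in all 4 libraries (log2 fold change 1.46 ± 0.160, edgeR adjusted p = 1.86e-04). Lrg1 stood at 3.45, 57.3, 370 and 312 CPM against 1.82, 32.1, 130 and 108 CPM (1.20 ± 0.252, edgeR adjusted p = 0.0398). Nr2f2, the transcription factor that sets venous identity, stood at 140, 177, 291 and 172 CPM against 59.9, 91.9, 170 and 145 CPM, a log2 fold change of 0.74. Ptgs1, a cyclooxygenase, and Nrp2, a receptor for semaphorins and VEGF-C, were higher by 1.26 and 0.77.

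The capillary list itself separated little from arterial cells. Of its 15 genes, 2 were higher, Cd300lg (0.79), a sialomucin of capillary endothelium, and the transcription factor Meox2 (0.47), and the median was 0.46. Rgcc (0.57) and Kdr (0.46) did not pass the test. Aqp1, a water channel, stood at 1004, 580, 1183 and 1589 CPM in capillary and at 875, 141, 149 and 275 CPM in arterial cells. It was higher in every library and yet did not pass (1.91, edgeR adjusted p = 0.143). Spock2 stood at 6.89, 422, 307 and 99.8 CPM against 14.5, 833, 509 and 625 CPM, and it did not pass either (-1.40, edgeR adjusted p = 0.115).

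**Figure D1:**
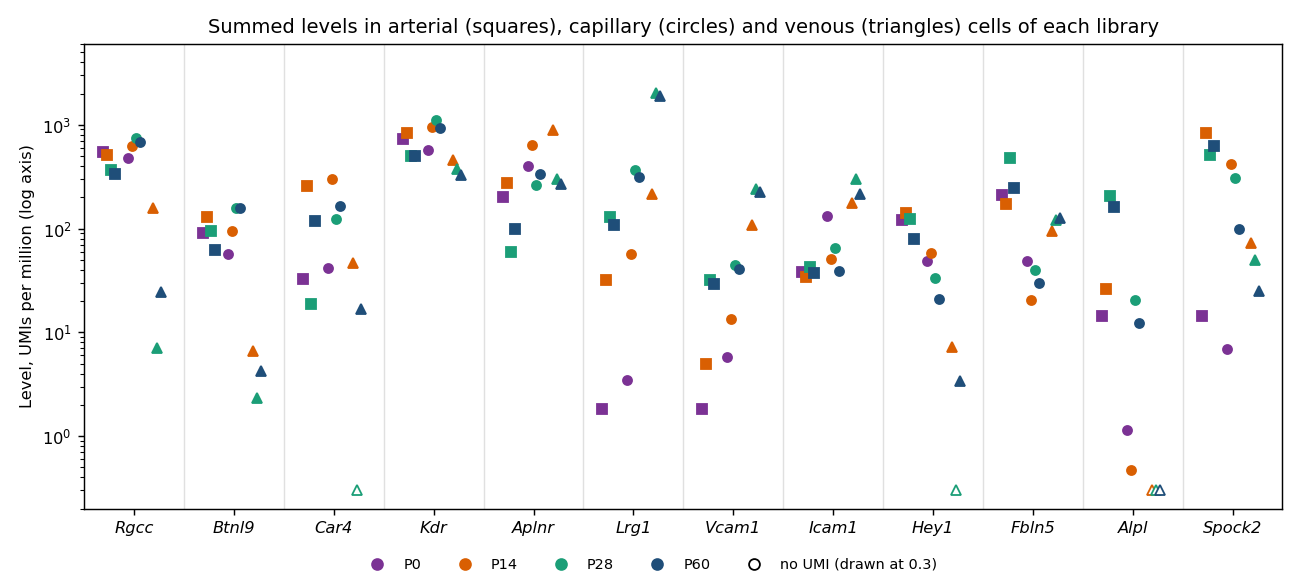
Levels of 12 genes (CPM, log axis) in arterial (squares), capillary (circles) and venous (triangles) sums, coloured by age, with open symbols at 0.3 for no UMI. Hey1, Fbln5 and Alpl were lower in capillary than in arterial cells of every library, and Lrg1, Vcam1 and Icam1 were lower than in venous cells.

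Barrier transport genes were called in both directions between capillary and arterial cells, and Wnt genes only as lower in capillary cells. Of all tested genes, 1.51% were higher and 2.75% lower, with a median of 0.01. Of 18 tested barrier transport genes, 1 was higher, the monocarboxylate transporter Slc16a1 (1.19), and 1 lower, the taurine transporter Slc6a6 (-1.47), with a median of -0.18. Of 15 tested Wnt genes, 3 were lower, Sox17, Fzd6 (-0.65) and the co-receptor Adgra2 (-1.06), and 0 higher, with a median of -0.32. Of 16 tested TGF-beta and BMP genes, 3 were lower, the receptors Acvrl1 (-0.67) and Tgfbr2 (-0.48) and the inhibitor Smad6 (-1.35). Of 14 tested shear and vasoactive genes, 5 were lower and 1 higher, and the mechanosensitive channel Trpv4 was lower by -1.33 on the log2 scale. In the basement membrane list, 2 of 16 were higher, Lama4 (0.36) and Nid1 (0.40), and 3 lower, among them Col18a1 (-1.85), the source of endostatin.

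By the fixed rule for named genes, the genes with the largest folds outside the lists were also examined. Rasa4, a calcium-dependent inhibitor of Ras, stood at 49.4, 81.1, 112 and 165 CPM in capillary and at 18.2, 31.0, 30.5 and 44.2 CPM in arterial cells. The classes did not overlap (1.57 ± 0.134, edgeR adjusted p = 1.92e-07). Higher in capillary cells were also Cysltr1, a leukotriene receptor (1.63), Lhx6, a homeobox factor (1.51), Samd5 (1.46), Cxxc4 (1.35) and the proprotein convertase Pcsk6 (1.27). Lower were Gper1, a membrane oestrogen receptor (-3.99), Nebl (-3.56), Tox2 (-3.34), Tmem100, a target of BMP signalling in arteries (-3.24), Tmem178 (-3.11), the sialyltransferase St8sia6 (-3.02), the sodium-calcium exchanger Slc8a1 (-3.01) and Rgs10 (-2.75).

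The second comparison was with venous cells, at P14, P28 and P60, since P0 had 7 and P7 had 4 of them. More capillary, barrier transport, Wnt and basement membrane genes were called higher than lower in capillary cells, and 10 of 17 venous genes were lower. Other lists, which share some members, had more genes lower than higher. Of 18 tested endothelial genes outside the rule, 1 was higher and 6 lower. Of 16 lipid genes 1 was higher and 4 lower, of 9 caveolae genes 1 and 4, and of 13 VEGF and Tie genes 2 and 5. Of 10486 genes tested, 589 were higher (5.62%) and 691 lower (6.59%) in capillary cells, 12.2% in all, with a median log2 fold change of -0.00 over all tested genes.

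Of the 15 capillary genes, 8 were higher and 2 lower, with a median of 1.15. Their summed level, Fabp4 included, was nevertheless lower, at 17444, 14650 and 26200 CPM in capillary and 29978, 20187 and 27272 CPM in venous cells at P14, P28 and P60. Rgcc, a regulator of the cell cycle used as a capillary marker, stood at 627, 740 and 681 CPM at P14, P28 and P60 in capillary cells and at 157, 7.06 and 24.4 CPM in venous cells. The classes did not overlap (3.13 ± 0.682, edgeR adjusted p = 0.0439). Btnl9, a butyrophilin-like protein, stood at 93.9, 159 and 157 CPM against 6.56, 2.35 and 4.21 CPM (4.36 ± 0.630, edgeR adjusted p = 0.00756). Car4, a carbonic anhydrase on the capillary wall, stood at 297, 123 and 165 CPM against 46.2, 0 and 16.8 CPM, a log2 fold change of 3.03. Kdr stood at 954, 1109 and 924 CPM against 453, 376 and 329 CPM (1.15 ± 0.251, edgeR adjusted p = 0.0248). These 4 genes were higher in capillary cells at each of the 3 ages, and Timp4 (2.18), Spock2 (2.36), Sgk1 (0.77) and Cd300lg (0.83) were also called higher. The fatty acid binding protein Fabp4 went the other way, at 11027, 8042 and 16777 CPM in capillary and 23924, 14053 and 20432 CPM in venous cells (-0.90), as did Meox2 (-0.77). Aqp1 stood at 580, 1183 and 1589 CPM against 2123, 3927 and 3590 CPM. It was lower in capillary cells at each age and did not pass (-1.94, edgeR adjusted p = 0.0668).

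Of 17 tested venous genes, 10 were lower in capillary cells and 0 higher, with a median of -1.10. Vcam1, an adhesion molecule for leukocytes, stood at 13.4, 44.9 and 40.8 CPM in capillary and at 108, 238 and 225 CPM in venous cells. The classes did not overlap (-2.78 ± 0.201, edgeR adjusted p = 6.17e-07). Lrg1 stood at 57.3, 370 and 312 CPM against 213, 2045 and 1901 CPM (-2.48 ± 0.243, edgeR adjusted p = 2.94e-04). Capillary Lrg1 thus lay below the venous and above the arterial level at each of these ages. Icam1, which also binds leukocytes, stood at 51.0, 65.4 and 38.6 CPM against 176, 301 and 217 CPM, a log2 fold change of -2.10. Of 9 tested leukocyte adhesion genes, 3 were lower, Vcam1, Icam1 and Il6st, and 1, the sialomucin Podxl (1.17), higher, with a median of -0.05. Nr2f2 stood at 177, 291 and 172 CPM against 390, 518 and 355 CPM (-1.09). Il6st, the shared receptor chain of the interleukin-6 family, stood at 355, 432 and 391 CPM against 1071, 1508 and 1459 CPM (-1.89 ± 0.107, edgeR adjusted p = 1.26e-10). Bmp4, a growth factor, was lower by -2.72 on the log2 scale, and Ptgs1, the interleukin-1 receptor Il1r1 and the proteoglycan Bgn by -1.68, -1.61 and -2.02.

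Of 18 tested barrier transport genes, 7 were higher and 1, the efflux pump Abcc4 (-0.50), lower, with a median of 0.95. Slc7a5, the large neutral amino acid transporter, stood at 173, 84.5 and 32.8 CPM in capillary and at 24.2, 7.06 and 3.36 CPM in venous cells (log2 fold change 2.91). Mfsd2a, which carries lysophospholipids and limits vesicular transport in brain endothelium, stood at 97.6, 60.1 and 19.7 CPM against 12.1, 0 and 0 CPM. The efflux pump Abcb1a stood at 420, 351 and 342 CPM against 217, 139 and 159 CPM (1.02 ± 0.123, edgeR adjusted p = 5.65e-06). All 3 were higher in capillary cells at each age, and Slc16a1 (1.65), Slc39a10 (1.26), Slc7a1 (0.88) and Atp10a (1.52) were called too. Slc2a1 itself did not pass (1.33). Of 15 tested Wnt genes, 7 were higher and 1, the co-receptor Lrp5 (-0.67), lower, with a median of 0.19. The transcription factor Lef1 stood at 54.7, 28.9 and 17.5 CPM against 10.7, 2.35 and 0.841 CPM (2.51), and the Wnt feedback genes Apcdd1 (2.57), Nkd1 (2.33) and Axin2 (2.12) and the factor Tcf7 (1.95) were higher with it.

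Of 16 tested basement membrane genes, 7 were higher and 0 lower, with a median of 0.42. Col4a1, a collagen IV chain, stood at 3474, 1116 and 1108 CPM in capillary and at 2126, 376 and 379 CPM in venous cells. It was higher at each age (1.07 ± 0.148, edgeR adjusted p = 1.10e-04), with Col4a2 (0.94), Nid2 (1.30), Lama4 (0.94) and the collagen receptor Itga1 (1.00). In the Notch list, 5 of 14 were higher, among them Hey1 (2.94), Notch4 (1.56) and Dll4 (1.45), and 2 lower, among them the ligand Dll1 (-2.00). In the list of shear and vasoactive genes, 3 of 14 were higher and 7 lower. The endothelin receptor Ednrb stood at 78.4, 122 and 162 CPM against 14.8, 7.06 and 8.41 CPM (3.03), while Procr (-1.65), the receptor of protein C, and Nos3 (-0.86), the endothelial nitric oxide synthase, were lower. Of 22 tested MHC and interferon genes, 5 were higher and 0 lower, among them Ly6c1 (1.42), Irf7 (1.20) and Isg15 (1.16).

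Among the genes named by the fixed rule, Fgl2, a prothrombinase related to fibrinogen, had the lowest log2 fold change. It stood at 2.43, 12.9 and 8.74 CPM in capillary and at 55.6, 165 and 202 CPM in venous cells (-4.38 ± 0.208, edgeR adjusted p = 1.16e-11). Itm2a, a transmembrane protein, stood at 209, 275 and 205 CPM against 22.8, 16.5 and 16.0 CPM (3.41 ± 0.187, edgeR adjusted p = 5.14e-10). Esm1, endocan, an angiogenic proteoglycan, stood at 109, 80.7 and 75.0 CPM against 6.56, 0 and 1.68 CPM (4.19). Itm2a and Esm1 were thus markedly more abundant in capillary than in venous cells of each library. Slit3 (5.11), Grin2a (3.85) and Rsad2, an interferon-induced antiviral protein (3.61), were higher too. Of 14 tested genes of the semaphorin list, 3 were higher, among them Sema7a (2.84), and 4 lower. The ectonucleotidase Nt5e (-4.17), the adhesion molecule Cadm3 (-4.26), the kinase Ptk2b (-4.15), Pgm5 (-3.82), the protease Tll1 (-3.49), the proteoglycan Vcan (-3.47) and the peptidase Anpep (-3.44) were lower. Genes of mural and mesenchymal cells moved with this contrast. Tagln of smooth muscle stood at 441, 347 and 366 CPM in capillary and 1339, 1967 and 2878 CPM in venous cells, and the 11 mural genes summed to 748, 967 and 609 CPM against 1418, 2023 and 3024 CPM. Kcnj8 (3.02) and Higd1b (2.81) of pericytes were instead higher in capillary cells, and the list's median was 2.52. The mesenchymal list summed to 1419, 3526 and 425 CPM in capillary and 541, 1663 and 389 CPM in venous cells, and 2 of 8 tested genes were higher, Col1a1 (1.14) and Smoc2 (0.79), and 0 lower, with a median of 0.98. The part of mural and mesenchymal RNA in the results was not tested.

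**Figure D2:**
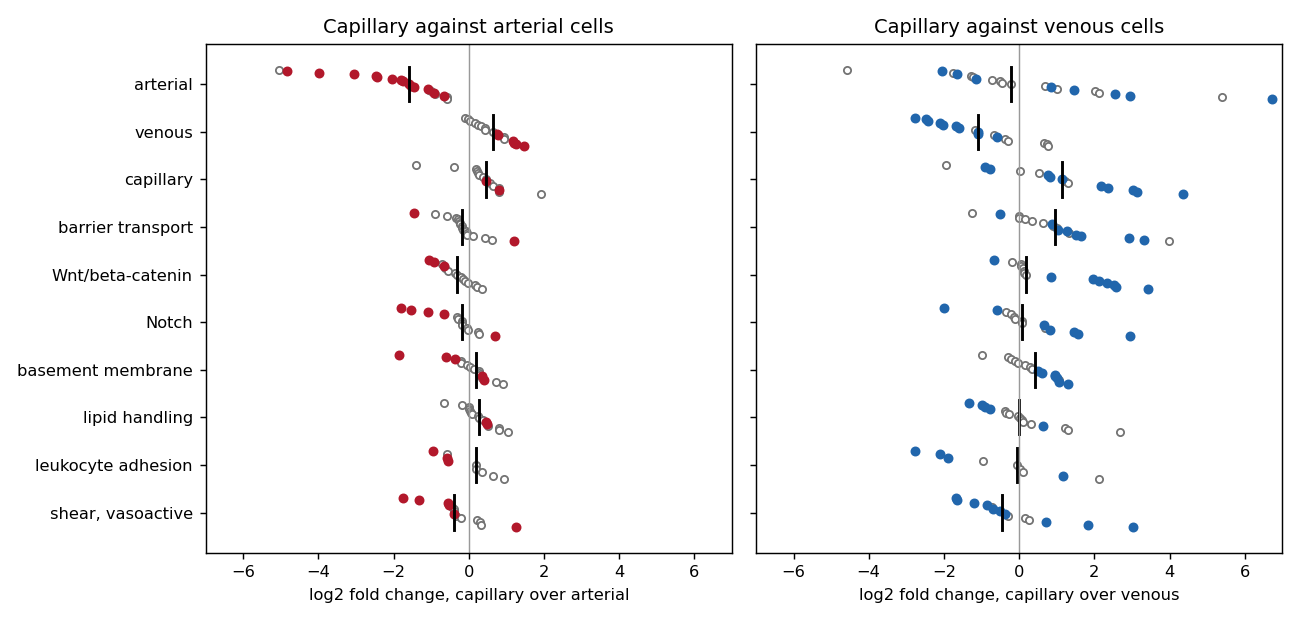
Log2 fold changes of capillary over arterial cells (left) and over venous cells (right) for the tested genes of 10 lists, 1 circle per gene, filled where called, with the median as a bar. Folds of genes with no UMI in a class depend on the fit's prior count. The arterial list lies below 0 on the left (14 of 21 called lower) and the venous list below 0 on the right (10 of 17 called lower).

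Capillary cells were then divided by the transporter Slc2a1 and by Plvap, into those with a UMI of Slc2a1 and none of Plvap and those with the reverse. Both genes are used for the division and are not tested. At P14 there were 342 cells with Slc2a1 alone, 655 with Plvap alone, 276 with both and 357 with neither, and the sides held 21 and 34 cells at P0, 22 and 159 at P28 and 21 and 102 at P60. Thinning each cell to 2000 UMIs left out 32, 4, 189, 61 and 26 shallower capillary cells from P0 to P60, and the rule applied anew then took 165, 28, 2381, 301 and 284 cells. At P14 thinning took arterial cells from 888 to 369 and venous cells from 284 to 172. The cells called capillary after thinning can thus include cells called arterial or venous at full depth. After thinning, the share with Slc2a1 alone was 7.27% (3.81 to 12.4), 42.9% (24.5 to 62.8), 22.7% (21.1 to 24.5), 8.64% (5.72 to 12.4) and 7.39% (4.64 to 11.1) in order of age. Without thinning it was 16.5%, 23.8%, 21%, 7.77% and 11.5%. The share with Plvap alone after thinning was 14.5% (9.55 to 20.9), 28.6% (13.2 to 48.7), 41.0% (39.0 to 43.0), 53.5% (47.7 to 59.2) and 60.6% (54.6 to 66.3) from P0 to P60, against 26.8%, 19.0%, 40.2%, 56.2% and 55.7% without thinning. Plvap alone was more frequent at P28 and P60, whose intervals overlap, than at P14, and Slc2a1 alone was more frequent at P14 than at P28 or P60. In Schwann lineage cells (a UMI of Sox10 and none of the 5 pan-endothelial genes, median depths of 7132, 7332, 4392, 2861 and 3738 UMIs), a Plvap UMI was found after thinning in 0.0726%, 0.0207%, 0.978%, 0.831% and 0.899%, and a Slc2a1 UMI in 2.88%, 1.66%, 6.85%, 11.8% and 3.85%. In thinned capillary cells, with or without the other gene, a Plvap UMI was found in 17.6%, 39.3%, 46.3%, 61.1% and 63.4%, and a Slc2a1 UMI in 10.3%, 53.6%, 28.1%, 16.3% and 10.2%. Both shares were higher than in Schwann lineage cells at each age, and the shares of Slc2a1 lay closest at P28. All cells without a UMI of the 5 pan-endothelial genes, called cells without endothelial genes from here on, had Slc2a1 at 13.7, 110, 178 and 27.4 CPM at P0, P14, P28 and P60, against 62.0, 232, 138 and 74.3 CPM in capillary cells, so at P28 the level outside endothelium was the higher. Such cells numbered 1876 of 8962 kept cells at P14, against 7918 of 9924 at P0, 9081 of 13495 at P28 and 5148 of 7167 at P60. Their mix of cell types can therefore differ between ages.

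**Figure D3:**
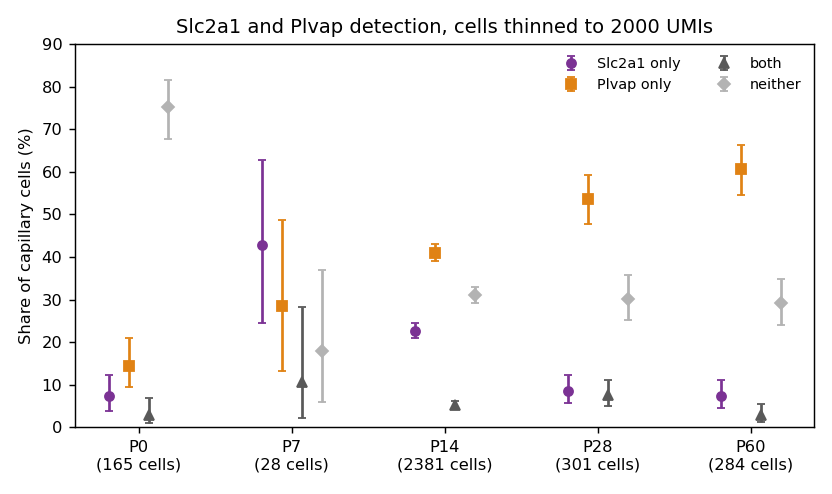
Share of capillary cells (%) with a UMI of Slc2a1 only, Plvap only, both or neither at each age, with exact 95% intervals. Cells were thinned to 2000 UMIs and the rule applied anew, so cells called arterial or venous at full depth can be included. Plvap alone reached 60.6% at P60, against 14.5% at P0.

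With all 4 libraries, 156 of 7125 tested genes were higher (2.19%) and 82 lower (1.15%) on the Slc2a1 side, 3.34% in all. Without P0, 364 of 8709 were higher (4.18%) and 259 lower (2.97%), 7.15% in all. Without P14, which holds most of the cells, 19 genes were called, and without P28 105. Leaving out P0 gave the most calls of the fits that left out 1 library. The p-values without P0 given below therefore cover P14, P28 and P60 only, and are no support for a difference at P0 or over all ages. Some genes were too low to be tested with P0 and were tested only without it. The filter on low counts can let in a gene by its level on 1 side alone. Counts of list genes without P0 are therefore given as a description.

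Of 13 tested barrier transport genes, 4 were higher on the Slc2a1 side and 0 lower, with a median of 1.38 against 0.00 over all tested genes. Without P0, 12 of 17 were higher and 0 lower, with a median of 1.93 against -0.02. Mfsd2a, Lrp1 and Atp10a, among those 12, were tested only without P0 and could enter by their level on the Slc2a1 side alone. Slc7a5 stood at 0, 504, 467 and 344 CPM on the Slc2a1 side at P0, P14, P28 and P60, and at 11.4, 27.7, 7.84 and 10.7 CPM on the Plvap side (4.55 ± 0.574, edgeR adjusted p = 0.0164). The amino acid transporter was thus higher on the Slc2a1 side at the 3 later ages and had no UMI there at P0. Abcg2, an efflux pump, stood at 207, 958, 1249 and 1319 CPM against 209, 424, 666 and 489 CPM, a log2 fold change of 0.98. Abcb1a stood at 34.6, 885, 1024 and 1330 CPM against 72.3, 188, 225 and 260 CPM. It passed without P0 (2.25, edgeR adjusted p = 1.34e-09) and not with it (1.97, edgeR adjusted p = 0.137). Mfsd2a had no UMI on either side at P0, and stood at 319, 512 and 275 CPM against 7.02, 1.31 and 0 CPM later (6.10 without P0). The cationic amino acid transporter Slc7a1 (2.86) and the insulin receptor Insr (1.64) were called with all libraries, and the transferrin receptor Tfrc (2.46) and Slc39a10 (2.11) without P0.

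Spock2 had no UMI on either side at P0 and stood at 1289, 1896 and 986 CPM on the Slc2a1 side against 46.5, 23.5 and 13.9 CPM on the Plvap side at P14, P28 and P60. The sides did not overlap at those ages (5.59 ± 0.312, edgeR adjusted p = 3.22e-07), and cells without endothelial genes had 21.5, 25.3 and 25.7 CPM. Apcdd1, a Wnt inhibitor that Wnt signalling induces, stood at 14.8, 325, 198 and 103 CPM against 7.61, 30.9, 11.8 and 3.21 CPM (3.61 ± 0.293, edgeR adjusted p = 3.22e-07). Among 10 tested Wnt genes 3 were higher and 1 lower, and without P0 9 of 15 were higher and 2 lower, with a median of 1.22. Lef1 had no UMI on either side at P0, and 147, 162 and 218 CPM against 8.22, 5.23 and 0 CPM later (4.68 without P0, edgeR adjusted p = 5.59e-08). Axin2 (3.45), Nkd1 (4.27) and Tcf7 (2.75) were also called higher without P0, whereas the receptor Fzd4 (-0.77) and its partner Tspan12 (-1.08) were lower. With P0, Lef1, Axin2, Nkd1, Znrf3 and Foxq1 were too low to be tested, Tcf7 and Tspan12 did not pass, and Fzd4 did (-0.76). Those too low with P0 are among the 9 called higher without it. They could enter by their level on the Slc2a1 side alone, so that count and its median are a description only. Prom1, the membrane glycoprotein CD133, stood at 69.1, 666, 413 and 447 CPM against 30.4, 30.9, 5.23 and 8.56 CPM, a log2 fold change of 4.66. Of 11 tested junction genes, 2 were higher on the Slc2a1 side, Cgnl1 (2.05) and Tjp1 (0.78), and 0 lower, with a median of 0.03. Without P0, 4 of 12 were higher and 2 lower, Jam3 (-1.46) and Jam2 (-0.64). Of 13 tested Notch genes, 3 were higher, Dll4 (1.36), Jag1 (1.32) and Hes1 (0.67), and 1 lower, the modifier Lfng (-1.17). Of 16 tested arterial genes outside the rule, 4 were higher, Edn1 (2.14), Sox17 (0.70), Dll4 and Jag1, and 1 lower, the matrix protein Fbln2 (-1.23), with a median of 0.54.

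Which capillary genes passed differed with and without P0. Calls did not depend on P0 alone, since over all tested genes 19 were left without P14 and 105 without P28. Of the 15 capillary genes, 3 were higher on the Slc2a1 side and 4 lower with all libraries, and 3 higher and 11 lower without P0, with a median of -1.80. Car4 was among those on the Slc2a1 side, at 39.5, 690, 314 and 1239 CPM against 15.2, 85.2, 31.4 and 71.7 CPM (3.38 ± 0.259, edgeR adjusted p = 3.22e-07). Kdr stood at 543, 615, 323 and 401 CPM on the Slc2a1 side and at 605, 1187, 1418 and 1026 CPM on the Plvap side (-1.08 ± 0.239, edgeR adjusted p = 0.0237). The VEGF receptor was thus lower on the Slc2a1 side in all 4 libraries, with its co-receptor Nrp1 (-1.15). Cd36 stood at 849, 270, 207 and 229 CPM against 913, 1917, 1138 and 2780 CPM (-2.94 without P0, edgeR adjusted p = 4.94e-10, and 0.434 with it). Fabp4 stood at 6369, 1121, 1393 and 3246 CPM against 8541, 15982, 8909 and 16884 CPM (-2.99 without P0, edgeR adjusted p = 3.27e-08, and 0.390 with it). Rgcc stood at 425, 207, 80.9 and 68.8 CPM against 411, 915, 1025 and 713 CPM (-2.68 without P0, edgeR adjusted p = 1.78e-08, and 0.478 with it). These 3 genes lay within 1.5-fold between the sides at P0 and apart at every later age, a difference between ages that was not tested. Btnl9 stood at 119, 4.67, 8.98 and 0 CPM against 38.0, 144, 220 and 188 CPM, so its direction at P0 was the opposite of the later one (-4.99 without P0, edgeR adjusted p = 3.05e-10, and 0.694 with it).

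Of 12 lipid genes tested with all libraries, 2 were lower on the Slc2a1 side, Angptl4 and Tcf15 (-1.46), and 0 higher, with a median of -0.85. Of 14 tested without P0, 8 were lower, with a median of -1.48. Pparg, a nuclear receptor of fatty acid storage, and Fabp5 were lower by -2.54 and -3.32 on the log2 scale without P0. With it, Pparg was too low to be tested and Fabp5 did not pass (-2.23). Angptl4, an inhibitor of lipoprotein lipase, stood at 34.6, 13, 0 and 11.5 CPM against 53.3, 109, 30.1 and 110 CPM (-2.66 with all libraries). Lrg1 stood at 4.94, 5.71, 18 and 22.9 CPM on the Slc2a1 side and at 7.61, 99.6, 457 and 377 CPM on the Plvap side (-4.05 ± 0.316, edgeR adjusted p = 3.22e-07). It was lower on the Slc2a1 side in each library, with few UMIs at P0, the reverse of Spock2, whose window is shown with that of Lrg1 above. Aplnr stood at 198, 364, 27.0 and 57.3 CPM against 704, 739, 361 and 373 CPM (-1.79), and Igf1, the insulin-like growth factor, at 19.8, 15.6, 8.98 and 11.5 CPM against 57.1, 146, 57.5 and 37.4 CPM (-2.91). Ehd4, an ATPase of membrane trafficking, was the 1 called gene of 8 in the caveolae list, at 49.4, 190, 296 and 493 CPM against 133, 874, 1477 and 904 CPM (-1.75). Col15a1, a collagen of the outer basement membrane, stood at 607, 192, 71.9 and 22.9 CPM against 624, 1385, 1206 and 861 CPM (-3.36 without P0, edgeR adjusted p = 2.42e-09, and 0.526 with it). Col13a1 (-2.71), Tnfaip2 (-2.68), Cd24a (-3.10) and Exoc3l2 (-2.30) were lower on the Slc2a1 side as well.

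**Figure D4:**
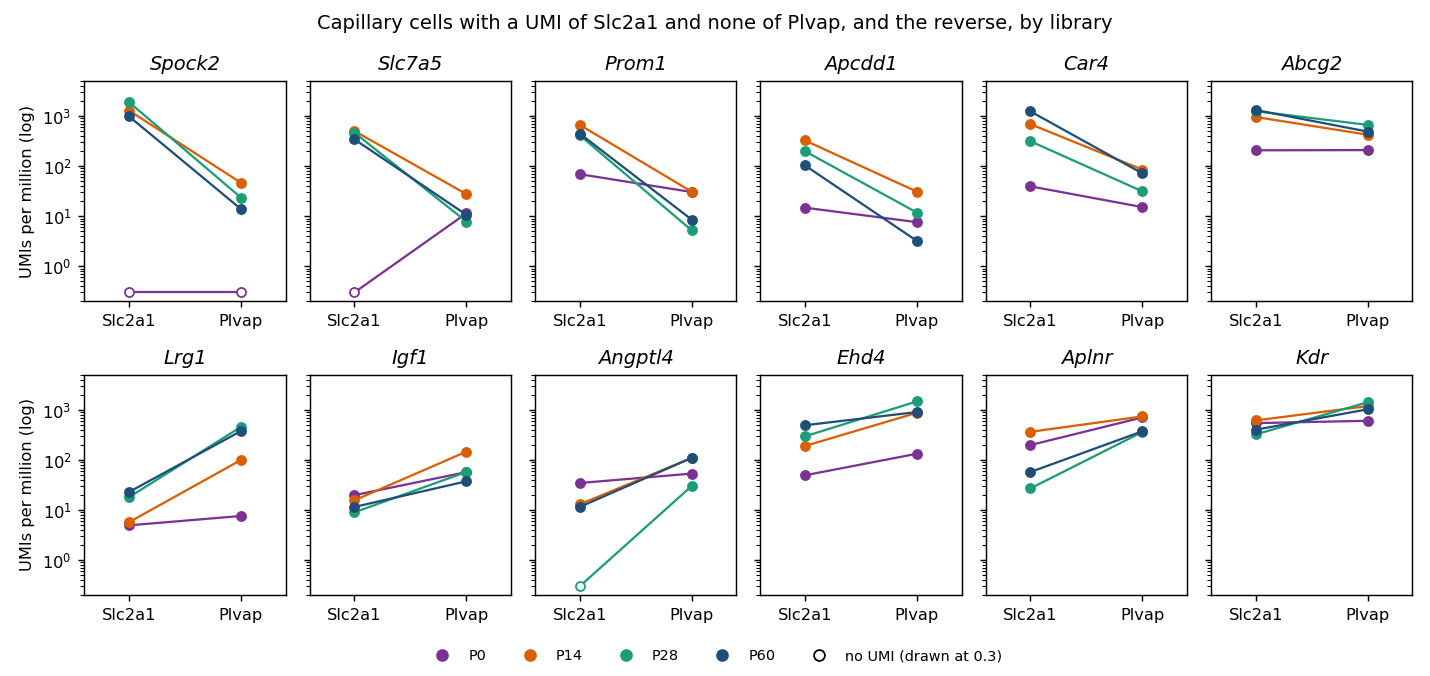
Levels of 12 genes (CPM, log axis) in capillary cells with Slc2a1 alone and with Plvap alone, with the sums of 1 library joined by a line and open circles at 0.3 for no UMI. Spock2, Slc7a5, Prom1 and Car4 fall from left to right at P14, P28 and P60, and Lrg1 climbs in all 4 libraries.

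Genes of the rule, given with no test, also differed between the sides. Cldn5, the tight junction claudin of endothelium, stood at 859, 1872, 2587 and 4771 CPM on the Slc2a1 side and at 719, 562, 53.6 and 523 CPM on the Plvap side, and Vwf at 79.0, 409, 422 and 1204 CPM against 164, 189, 252 and 118 CPM. The arterial kinase Bmx stood at 4.94, 36.3, 71.9 and 218 CPM against 0, 3.21, 5.23 and 1.07 CPM. Pecam1 stood at 997, 922, 566 and 1147 CPM against 1054, 1652, 1129 and 1563 CPM. RNA of other cell types moved with the division. From P0 on, in the order P0, P14, P28 and P60, the mesenchymal list summed to 1076, 3084, 5840 and 482 CPM on the Slc2a1 side against 837, 969, 2151 and 373 CPM on the Plvap side. The perineurial list summed to 24.7, 416, 1249 and 115 CPM against 41.8, 67.6, 214 and 71.7 CPM, and the Schwann list to 1111, 639, 1150 and 1055 CPM against 1221, 288, 438 and 85.6 CPM. The erythroid list summed to 193, 2947, 692 and 0 CPM against 213, 1238, 261 and 8.56 CPM. Without P0, 5 of 5 tested perineurial, 5 of 7 mesenchymal, 3 of 7 mural and 4 of 4 erythroid genes were higher on the Slc2a1 side. Of these, the perineurial Cldn1, Sfrp5, Lypd2 and Mpzl2 and the mural Cspg4 and Vtn were tested only without P0. They could enter by their level on the Slc2a1 side alone, so these counts are a description only. In thinned cells, with all libraries, Hba-a1 and Hba-a2 turned to lower, at -0.70 and -0.39. The fibroblast proteoglycan Dcn (2.77) and Smoc2 (2.67) passed with all libraries. Their part in the results was not tested.

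Of the 3 pairs of ages compared, P0 and P14 had the largest share of genes past the fold. With 1 library per age, a gene counted as past the fold where the ratio of CPM was at least 2 or at most 0.5 and the higher value at least 50 CPM. From P0 to P14, 468 of 4252 genes were higher (11.0%) and 213 lower (5.01%), 16.0% in all. From P14 to P28, 159 of 4222 were higher (3.77%) and 104 lower (2.46%), 6.23% in all. From P14 to P60, 136 of 4127 were higher (3.30%) and 154 lower (3.73%), 7.03% in all. Median-of-ratios scaling moved the last pairs by 0.11 and -0.10 on the log2 scale and turned their splits into 132 higher and 148 lower, and 174 higher and 118 lower. In cells with a Y-linked UMI and no Xist, an alternative chosen after the data were seen, the counts were 168 and 116 (6.67%) from P14 to P28 and 145 and 171 (7.65%) from P14 to P60.

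Barrier transport genes were higher at P14 than at P0 and partly lower again at P60. From P0 to P14, 11 of 13 were higher and 0 lower, with a median log2 ratio of 1.91 against 0.13 over all genes considered. From P14 to P60, 0 were higher and 4 of 14 lower, with a median of -0.40 against -0.15. The whole list summed to 932, 3082 and 2311 CPM in capillary cells at P0, P14 and P60. It summed to 1258, 4036 and 3231 CPM in arterial cells and to 432, 1211 and 1131 CPM in cells without endothelial genes. A higher sum at P14 than at P0 was thus not particular to capillary cells. Slc2a1 stood at 62.0, 479, 232, 138 and 74.3 CPM from P0 to P60, with a ratio of 3.75 (2.86 to 5.00) from P0 to P14 and 0.320 (0.260 to 0.390) from P14 to P60. Slc7a5 stood at 6.89, 595, 173, 84.5 and 32.8 CPM, with ratios of 25.0 (11.5 to 68.3) and 0.190 (0.138 to 0.255). Spock2 stood at 6.89, 323, 422, 307 and 99.8 CPM, with ratios of 61.2 (28.1 to 167) and 0.236 (0.198 to 0.280). All 3 were lowest at P0 and lower at P60 than at P14, and the P7 values rest on 21 cells. Mfsd2a stood at 0, 64.7, 97.6, 60.1 and 19.7 CPM, at least 28.3-fold higher at P14 than at P0, where a count of 0 allows up to 3 UMIs or 3.45 CPM. Abcb1a kept a level of 342 CPM at P60 after 74.7 at P0 and 420 at P14. Apcdd1 of the Wnt list stood at 6.89, 213, 124, 38.8 and 11.7 CPM, with a ratio of 0.0936 (0.0534 to 0.153) from P14 to P60, and 5 of 10 Wnt genes were higher at P14 than at P0.

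Plvap was higher at P14, P28 and P60 than at P0. It stood at 167, 343, 896, 2013 and 2106 CPM from P0 to P60, with a ratio of 5.38 (4.56 to 6.38) from P0 to P14 and 2.35 (2.25 to 2.45) from P14 to P60. Lrg1 stood at 3.45, 19.4, 57.3, 370 and 312 CPM, a ratio of 5.46 (4.81 to 6.18) from P14 to P60. Lpl, lipoprotein lipase, stood at 9.19, 0, 29.5, 128 and 144 CPM, a ratio of 4.88 (4.07 to 5.85), and Cd36 at 875, 317, 1373, 1053 and 2562 CPM. All were higher at P60 than at P14. Of the lipid genes considered, 1 of 10 was higher and 0 lower from P0 to P14 (median 0.50), and 2 of 12 higher and 2 lower from P14 to P28 (median -0.42). From P14 to P60, 2 of 13 were higher, Lpl and Slc27a3, and 0 lower (median 0.55). Aqp1 stood at 1004, 220, 580, 1183 and 1589 CPM. The chemokine Cxcl12 stood at 123, 1449, 3003, 4412 and 4551 CPM, 24.4-fold (20.2 to 29.8) higher at P14 than at P0. Ltbp4, a matrix protein that binds TGF-beta, was 12.2-fold (9.23 to 16.5) higher at P14 than at P0.

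**Figure D5:**
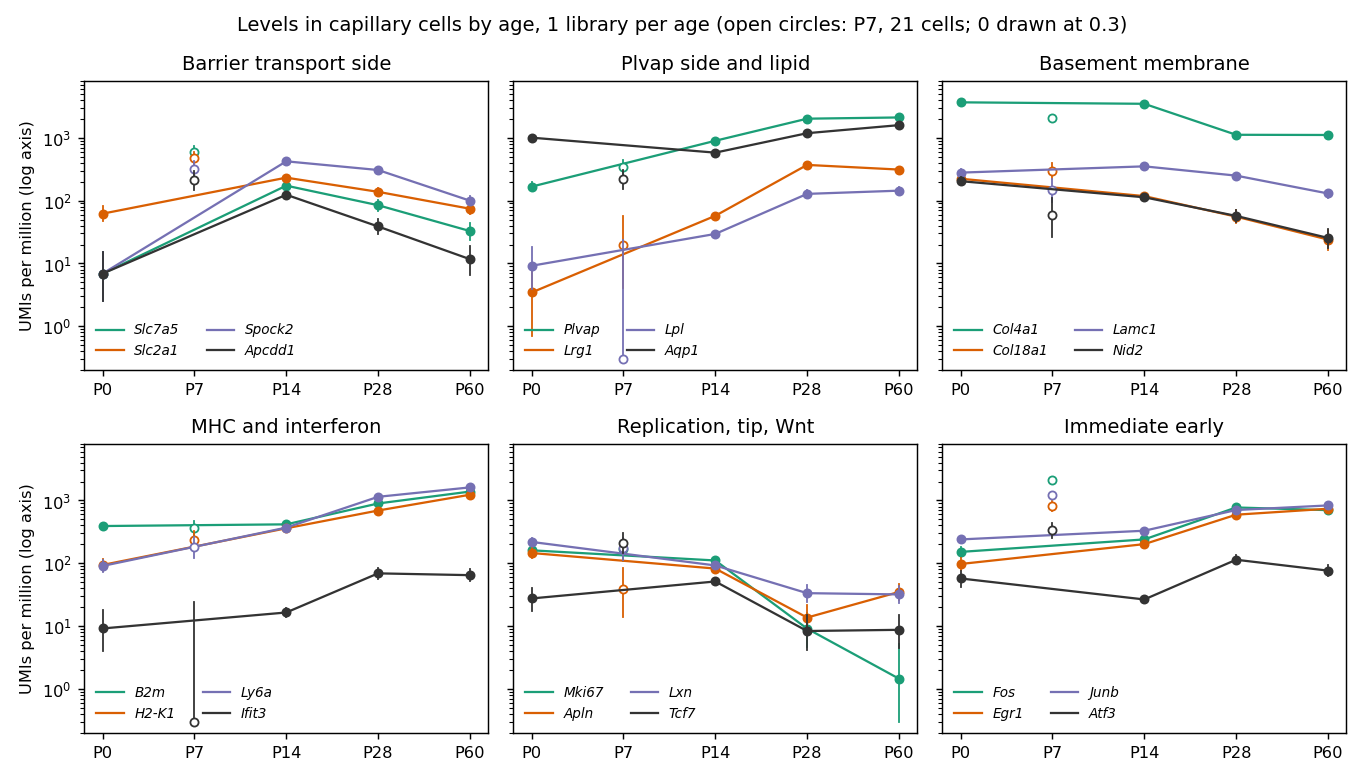
Levels of 24 genes in capillary cells by age (CPM, log axis, 1 library per age, vertical lines for exact 95% intervals of counting error, open circles for P7 with 21 cells, 0 drawn at 0.3). Slc7a5, Slc2a1, Spock2 and Apcdd1 lie higher at P14 than at P0 or P60, while Plvap and Lrg1 lie highest at P28 or P60.

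Basement membrane genes were lower at P60, with 5 of 16 past the fold from P14 and 0 in the other direction, and a median of -0.80. Col4a1 stood at 3666, 2077, 3474, 1116 and 1108 CPM, a ratio of 0.319 (0.303 to 0.336) from P14 to P60, beside 0.304 in arterial, 0.178 in venous and 0.409 in the cells without endothelial genes. Col18a1 stood at 223, 298, 118, 55.6 and 24.0 CPM, and the laminin chain Lamc1 at 279, 149, 351, 250 and 130 CPM. The collagen IV level thus lay lower at P60 in each of these classes, of which the last can differ in its mix of cells between these ages. Of 16 replication genes, 4 reached 50 CPM at P14 or P60, and 3 of them, Mki67, Top2a and Hist1h1b, were lower at P60. Pcna, the sliding clamp of DNA replication, stood at 83.5 CPM at P14 and 83.0 at P60. Mki67, a marker of dividing cells, stood at 161, 168, 111, 9.13 and 1.46 CPM, a ratio of 0.0132 (0.00159 to 0.0476) from P14 to P60. Top2a, a topoisomerase of dividing cells, stood at 168, 136, 82.8, 12.2 and 0 CPM. Among tip and angiogenic genes, 5 of 13 were lower at P14 than at P0 and 1 higher, and 3 of 10 were lower at P60 than at P14 and 0 higher. Apln, the ligand of Aplnr, stood at 146, 38.8, 82.5, 13.7 and 35.0 CPM. H19, an imprinted RNA of fetal tissue, stood at 1798, 149, 66.8, 35.0 and 0 CPM.

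MHC and interferon genes were higher at P60 than at P14, with 12 of 19 past the fold, 0 in the other direction and a median of 1.24. B2m, the light chain of MHC class I, stood at 392, 369, 417, 896 and 1386 CPM, a ratio of 3.33 (3.15 to 3.51), beside 2.96 in arterial, 3.32 in venous and 1.33 in the cells without endothelial genes. The last class held 1876 of 8962 kept cells at P14 and 5148 of 7167 at P60, so its ratio can compare unlike cells. H2-K1, a heavy chain of MHC class I, stood at 94.2, 239, 361, 692 and 1234 CPM (3.42, 3.22 to 3.62), and Ly6a, the antigen Sca-1, at 90.8, 181, 370, 1144 and 1615 CPM (4.37, 4.15 to 4.60). These levels were higher at P28 than at P14 and higher again at P60. H2-Q7 stood at 1.15, 12.9, 5.51, 22.1 and 114 CPM, but shares near-identical sequence with H2-Q6, so reads can be split between them. Other genes named by the rule as higher at P60 were Clu, a secreted chaperone, at 1.15, 0, 20.6, 193 and 201 CPM, a ratio of 9.78 (8.16 to 11.7) from P14 to P60, and Xdh, xanthine dehydrogenase, at 8.58 (7.20 to 10.2). Cyp26b1, which degrades retinoic acid, had a ratio of 11.8 (8.50 to 16.3). The cholesterol hydroxylase Ch25h (7.49), the interferon-induced Ifi27l2a (9.01) and Ramp3 (6.62), a partner of the adrenomedullin receptor, were higher as well.

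Immediate early genes, which respond within a short time to stimuli that include tissue handling, were higher at P60 than at P14 for 10 of 14, with 0 lower and a median of 1.26. Fos stood at 152, 2083, 240, 774 and 702 CPM and Egr1 at 97.6, 815, 202, 594 and 739 CPM. The ratio of Egr1 from P14 to P60 was 3.66 in capillary, 4.67 in arterial, 2.25 in venous and 5.65 in the cells without endothelial genes. The difference between P14 and P60 was thus present in cells outside endothelium as well, whose mix of cells can differ between these ages. RNA of other cells differed between ages too. Haemoglobin RNA in capillary cells was lower for 4 of 4 erythroid genes at P60 than at P14, with Hbb-bs at 163, 0, 1239, 126 and 4.37 CPM. From P14 to P28, 5 of 7 mesenchymal and 3 of 3 perineurial genes were higher, and from P14 to P60 5 of 6 mesenchymal genes were lower and 1 higher. From P0 to P14, 5 of 6 Schwann genes were lower (median -1.81), and 4 of 4 erythroid (2.71), 2 of 3 mural (2.55) and 2 of 5 mesenchymal genes (0.25) were higher. In thinned cells Hba-a1 and Hba-a2 were instead lower at P14 than at P0. The part of other cells' RNA in the differences between ages was not tested.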

How the data were processed

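Per the file headers, the authors deposited UMI counts per gene and barcode made with Cell Ranger 5.0.1, and 7.0.0 at P7. The submitters' processing notes name Seurat and mm9. The sources used here give neither intron handling nor a counting rule for overlapping genes, so reads of overlapping or antisense genes cannot be told apart. Genes were matched by Ensembl ID, and the genes shared by all libraries held 96.1% to 99.4% of UMIs. Kept barcodes had at least 500 UMIs and 300 genes, with at most 20% mitochondrial UMIs. The cells, gene lists and tests were chosen with earlier results of these data known.

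UMIs were summed per library and class (at least 20 cells) and tested with edgeR 4.0.16 (TMM, filterByExpr, quasi-likelihood, two-sided, Benjamini-Hochberg at 0.05). Each SE is the size of the log2 fold change divided by the square root of the test's F statistic. It is not estimated directly by the fit and need not rank genes as the p-values do. All 3 classes share 1 fit and 1 spread, and the library is the pairing block, since its classes share their animals. The block takes out the level of each library. The p-values thus measure how evenly the difference between classes within a library recurs across libraries, which differ in age. Named genes were the 10 largest called folds per direction with the same sign in every library and at least 20 CPM in the higher class, and the 10 largest ratios of P60 over P14 per direction, besides list members, and a few genes that met these rules are not reported here. CPM is a gene's UMIs scaled to a class sum of 1000000. Cells were thinned to 2000 UMIs for shares. Doublets were kept, and removing Scrublet calls, which took 14, 0, 14, 14 and 0 capillary cells from P0 to P60, was an alternative. At P0 its own threshold called 0% and the highest 8% were taken. RefSeq promoter windows are on GRCm38.p6. The tests were run with R 4.3.3, limma 3.58.1 and, as an alternative, DESeq2 1.42.0.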

Additional observations from a re-analysis of the deposited data

How the results depend on the processing

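Genes called between capillary and arterial cells were 446, and 259 with DESeq2, 714 with no filter on low counts and 263 to 438 without 1 library, the lowest without P28. Genes called between capillary and venous cells were 1280, and 692 in thinned cells and 857 to 1011 without 1 library. Between the Slc2a1 and Plvap sides 238 became 132 with DESeq2, 669 with no filter and 19 to 623 without 1 library, with 19 without P14, 105 without P28 and 623 without P0. Without the library as pairing block the counts were 8, 161 and 2 in the same order. The strict rule, which allows no arterial or venous gene, left too few cells for the division by Slc2a1 and Plvap and shared 299 of the 446 arterial calls. The capillary share of kept cells from P0 to P60 was 0.625%, 0.0446%, 5.11%, 0.785% and 0.851% under the strict rule, and 1.80%, 0.348%, 21.9%, 2.85% and 3.14% with 2 pan-endothelial genes. With 4 of them it was 1.03%, 16.2% and 1.70% at P0, P14 and P28. In thinned cells it was 2.38%, 30.4%, 3.05% and 4.29% at P0, P14, P28 and P60. The share of gated endothelial cells under the strict rule was 61.4%, 18.5%, 28.1%, 36.4% and 21.3%. In thinned cells it was 93.2%, 81.5%, 75.2% and 66.2%, with 4 pan-endothelial genes 55.7% at P14, and with 2 it was 62.4% at P14 and 66.8% at P28. At a minimum of 200 CPM, 200, 65 and 78 genes passed the fold from P0 to P14, P14 to P28 and P14 to P60, and under the strict rule 436 from P14 to P60. The values that changed direction under the strict rule were Tmem252 (-0.24) and Plxnb2 (-0.06) against arterial and Lsr (-0.20) against venous cells, and the ratios of Acta2 from P0 to P14 (0.615) and Rgs5 from P14 to P28 (0.373). In thinned cells they were Hba-a1 (-0.70) and Hba-a2 (-0.39) between the sides, the ratios of both from P0 to P14 (0.578 and 0.704), and those of Dcn (1.47) and Smoc2 (1.44) from P14 to P60. Of the age ratios past the fold recomputed under the alternatives, 1065 stayed past it, 78 did not, 6 reversed and 21 gave no value. The cause of these differences was not tested. Depth limits P7 most, where a count of 0 allows up to 19.4 CPM.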
